A study of Mus musculus with 25 samples.

Results

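The regions described here were 12299 of the 65053 consensus ATAC-seq peaks of αTC1 and βTC6 cells, or 18.9% of them. ATAC-seq inserts sequencing adapters where a transposase can reach the DNA, so reads gather over open chromatin. A peak was included when the deposited table placed it more than 100000 bp from its nearest transcription start site (TSS) and on an autosome other than 1, 6 or 14, which left 16 chromosomes. The study asked how accessibility and expression differ between a mouse alpha-like and a mouse beta-like islet line and whether mixtures of them can be resolved. αTC1 denotes alpha TC1 clone 6 and βTC6 denotes Beta-TC-6, both tumour-derived mouse lines from ATCC, so each group is a single cell line and not a sampling of animals. Accessibility was measured in 5 replicates of each line and in 9 mixtures that ran from 10% to 90% αTC1 in steps of 10%, each mixture once, and expression (RNA-seq) in 3 replicates of each line. No source states that replicates came from separate cultures, so p-values here measure the spread between libraries, which may be technical.

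Open chromatin far from any TSS often marks enhancers, or insulators bound by the architectural protein CTCF. Enhancers act through chromatin loops on genes that need not be the nearest. Gene deserts, long stretches without protein-coding genes, often flank developmental transcription factor genes and neural adhesion genes, which are also among the longest genes of the genome. In pancreatic islets, alpha cells secrete glucagon and beta cells secrete insulin, and distal elements distinguish these cells from each other.

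The working description of these peaks as lying in gene deserts held only in part. By the GENCODE vM1 annotation of the same mm9 build (NCBIM37), 8112 of the 12299 (66.0%) lay between genes, 4041 (32.9%) in introns and 146 (1.19%) in exons. Protein-coding genes held 3970 of them, spread over 718 genes, and Ptprd (59 peaks), Magi2 (37) and Nrxn3 (37) held the most. The deposited distances came from the authors' HOMER annotation and did not match GENCODE throughout. Of the 12299 peaks, 6139 (49.9%) were more than 100 kb from every GENCODE TSS, whereas 9613 (78.2%) were that far from every protein-coding one, and 340 (2.76%) lay within 2 kb of some TSS. They are therefore called peaks beyond 100 kb below. Their distance ran from 100011 to 2020426 bp with a median of 214084 bp, and 423 were more than 1 Mb away. They were assigned to 2227 nearest genes, 5092 upstream and 7207 downstream of the TSS.

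Sequences are shown for 6 of these peaks, 200 bases around the peak centre on the plus strand of mm9. The first pair had the largest moderated t-statistics among peaks more open in βTC6, the second pair the largest among peaks more open in αTC1, and the third pair had the highest signal among peaks that matched the CTCF consensus and had a log2 fold change under 0.5 in size. Capitals mark the AP-1 core TGANTCA, the homeodomain core TAATTA or the CTCF consensus, on either strand.
βTC6 peak near 1700019M22Rik, chr12:97178945-97179144: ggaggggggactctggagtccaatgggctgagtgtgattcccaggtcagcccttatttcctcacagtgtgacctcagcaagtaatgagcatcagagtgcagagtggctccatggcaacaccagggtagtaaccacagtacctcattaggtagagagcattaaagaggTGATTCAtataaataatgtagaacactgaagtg
βTC6 peak near Nr2f1, chr13:79485422-79485621: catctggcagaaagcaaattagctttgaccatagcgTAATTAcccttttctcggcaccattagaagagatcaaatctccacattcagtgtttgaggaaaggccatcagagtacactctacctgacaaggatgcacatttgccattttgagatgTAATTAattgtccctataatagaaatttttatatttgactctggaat
αTC1 peak near 4930428G15Rik, chr9:115514613-115514812: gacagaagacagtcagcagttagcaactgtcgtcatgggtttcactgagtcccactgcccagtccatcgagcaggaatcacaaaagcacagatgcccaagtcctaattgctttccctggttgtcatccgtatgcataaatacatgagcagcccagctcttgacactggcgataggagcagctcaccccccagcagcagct
αTC1 peak near Msl3l2, chr10:55655399-55655598: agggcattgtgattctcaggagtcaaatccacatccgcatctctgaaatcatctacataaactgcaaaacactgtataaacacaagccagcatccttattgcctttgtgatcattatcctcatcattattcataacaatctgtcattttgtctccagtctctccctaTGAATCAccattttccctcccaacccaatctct
shared peak in Kalrn, chr16:34322735-34322934: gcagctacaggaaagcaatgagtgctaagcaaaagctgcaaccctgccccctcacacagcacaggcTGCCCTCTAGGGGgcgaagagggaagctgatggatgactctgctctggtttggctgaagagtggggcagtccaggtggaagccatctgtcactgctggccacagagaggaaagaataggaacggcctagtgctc
shared peak near Pawr, chr10:107883193-107883392: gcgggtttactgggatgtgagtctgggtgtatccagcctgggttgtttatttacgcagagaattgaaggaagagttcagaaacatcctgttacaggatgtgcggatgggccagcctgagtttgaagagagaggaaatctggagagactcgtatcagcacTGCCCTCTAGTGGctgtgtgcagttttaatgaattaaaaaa
The peak near Nr2f1 held 2 homeodomain cores and had a GC content of 37.5%. The peaks near 1700019M22Rik and Msl3l2 held 1 AP-1 core each, and the peak near 4930428G15Rik held none of the motifs searched.

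The pure libraries held 4397851 to 10374903 reads in consensus peaks, and peaks beyond 100 kb took 10.8% to 16.2% of them in αTC1 and 15.2% to 17.9% in βTC6. αTC1 replicates 4 and 5 stood apart, with 16.2% and 15.4% against 10.8% to 10.9% in replicates 1 to 3. Without the 10 strongest of these peaks the ranges were 8.67% to 9.68% in αTC1 and 13.9% to 16.0% in βTC6. The deposited table holds no 0, and its lowest value is 1 read. Between 4.12% and 6.13% of peaks beyond 100 kb were at 1 read in the αTC1 libraries and between 1.94% and 2.65% in the βTC6 libraries, so a value of 1 read there is an upper limit. In the RNA-seq, 5 of 6 alpha cell markers were higher in αTC1 and 6 of 6 beta cell markers in βTC6. Of 4 delta, PP and epsilon cell markers, 2 were higher in βTC6: the delta cell hormone Sst at 207 to 325 FPKM and listed at 0 in αTC1, and the PP cell hormone Ppy at 3.70 to 50.8 FPKM against 0.09 to 0.10. The other two, Hhex and Ghrl, were under 1 FPKM in every library, and the part of such cells in the accessibility results was not tested. Of 5 acinar and ductal markers, Cela1 and Sox9 were higher in αTC1 (summed FPKM of 7.71 to 8.15 against 0.14 to 0.82), and 5 of 6 fibroblast, endothelial and immune markers were under 1 FPKM in every library.

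Peaks beyond 100 kb were called more open in βTC6 at a higher share than peaks nearer to genes. Normalized read counts were compared by limma on log2(value + 1) over all peaks, and calls required a false discovery rate (FDR) below 5% with a log2 fold change beyond 2 in either direction. Positive fold changes mean higher values in βTC6. All 12299 peaks were tested, and 2598 (21.1%) were called more open in βTC6, against 12.9% of all consensus peaks, and 500 (4.07%) were called more open in αTC1, against 5.38% of all. Thus 83.9% of their calls favoured βTC6, compared with 70.6% over all peaks and 80.9% of the fewer calls within 2 kb. When each chromosome was centred on its own median, the calls were 1722 and 778 and this share was 68.9%, against 53.0% over all peaks. Under quantile normalization it was 68.8%, against 52.5% over all peaks. Under the centring, 14% of peaks beyond 100 kb and 8.12% of all peaks were called more open in βTC6. In replicates 1 to 3 alone the called shares were 20.5% and 3.85%, against 12.5% and 4.82% of all peaks. In replicates 4 and 5 alone they were 23.8% and 5.37%, against 14.3% and 6.71%. In bulk libraries, fewer cells with an open site and less opening per cell cannot be told apart.

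The middle of the distribution was shifted toward βTC6, but that of the strongest peaks was not, although their calls favoured βTC6. The median log2 fold change of peaks beyond 100 kb was 0.89 with quartiles of -0.33 and 1.85, while the median over all peaks was 0.00. For the 444 of them whose level in the higher line was 50 normalized reads or more, the median was -0.35. It was -0.84 for peaks of that level at 10 to 100 kb. Of these 444, 23.0% were called in βTC6 and 8.11% in αTC1. At 10 to 100 kb, peaks of that level were called more often in αTC1 than in βTC6. The median level of peaks beyond 100 kb per library was 2.86 to 3.18 normalized reads in αTC1 and 6.08 to 7.51 in βTC6, without overlap. Such medians did not overlap over all consensus peaks either, at 6.01 to 6.36 and 7.53 to 8.07. At 10 to 100 kb they were 5.05 to 5.49 and 6.11 to 6.38, also without overlap. Peaks 10 to 100 kb from a TSS on the same chromosomes had a median log2 fold change of 0.05 and those within 2 kb one of -0.31. Promoter-near peaks were also far stronger, with median levels of 24.8 in αTC1 and 20.7 in βTC6. Between replicates beyond 100 kb, the median SD of log2 values was 0.304 in αTC1 and 0.32 in βTC6. It was close to that at 10 to 100 kb, at 0.274 and 0.303, and smaller within 2 kb, at 0.181 and 0.208.

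**Figure D1:**
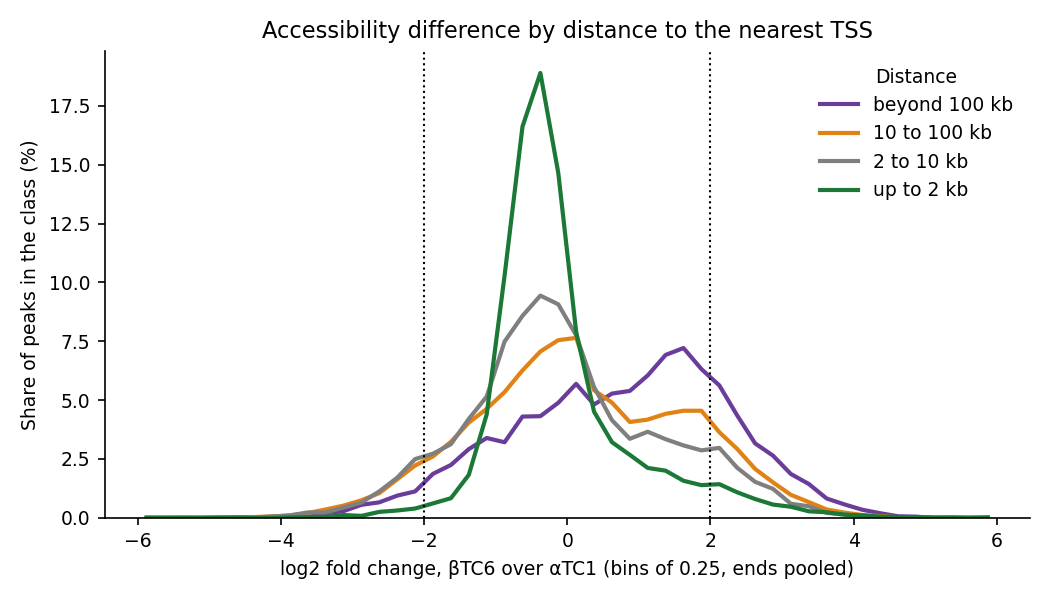
Share of peaks (vertical axis, %) in each bin of log2 fold change of accessibility, βTC6 over αTC1 (horizontal axis), for 4 classes of distance to the nearest TSS on the 16 chromosomes, with dotted lines at the call threshold of 2 in either direction. Peaks beyond 100 kb had their median at 0.89, and peaks within 2 kb had theirs at -0.31.

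The share called in βTC6 was higher farther out, up to 1 Mb. It was 18.6% at 100 to 200 kb, 22.5% at 200 to 500 kb, 26.1% at 500 kb to 1 Mb and 22.2% beyond 1 Mb. The share called in αTC1 was lower at each of these steps, at 4.97%, 3.60%, 2.60% and 2.13%. The median level in αTC1 was 3.77 normalized reads at 100 to 200 kb and 1.97 beyond 1 Mb, whereas the median level in βTC6 was 6.55 and 6.11 at those distances. By gene context, 21.0% of the peaks between genes, 21.1% of those in introns and 25.3% of the 146 in exons were called in βTC6. Among the 6139 that were more than 100 kb from every GENCODE TSS, 21.4% were called in βTC6 and 3.73% in αTC1.

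**Figure D2:**
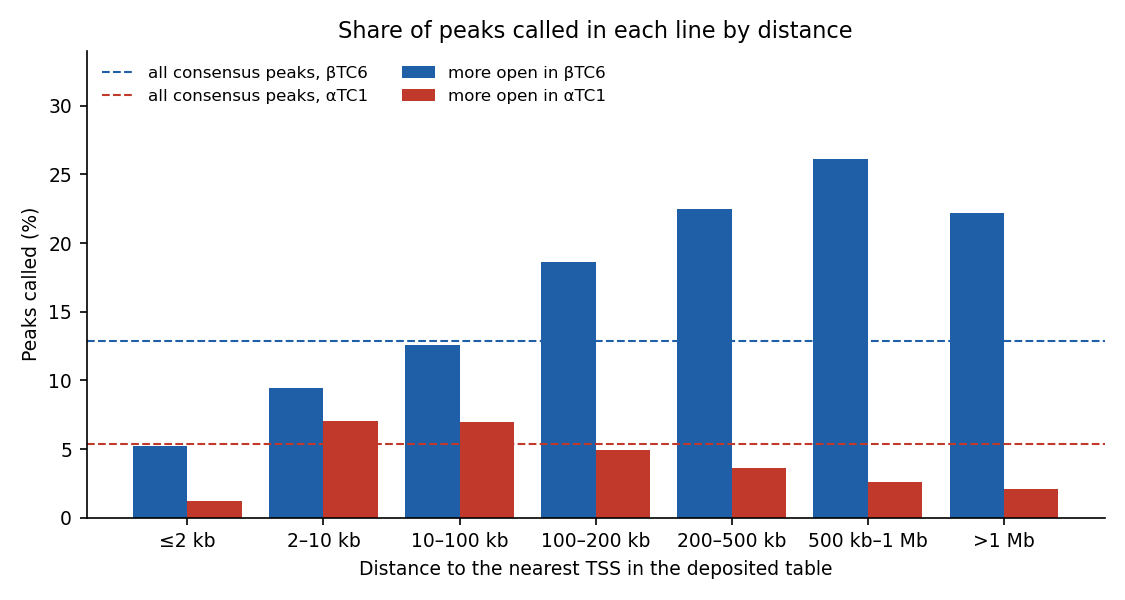
Share of peaks called more open in βTC6 (blue) and in αTC1 (red) by distance to the nearest TSS, with dashed lines at the shares over all consensus peaks (12.9% and 5.38%). From 10 to 100 kb to 500 kb to 1 Mb, the βTC6 bars run from 12.6% to 26.1% and the αTC1 bars from 6.94% to 2.60%.

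The shift was present on every chromosome examined. On each of the 16, the median log2 fold change of peaks beyond 100 kb was above that of the chromosome's other peaks, by 0.66 to 1.43, and so was the share called in βTC6. The difference of medians was smallest on chromosome 11 and largest on chromosome 2, where the median was 1.12 beyond 100 kb and -0.31 elsewhere. The share called in αTC1 was below that of the other peaks on 12 of 16. Chromosomes 7 and 9 held the highest αTC1 shares, at 10.1% and 11.2% of peaks beyond 100 kb, and their other peaks stood at 7.80% and 8.44%.

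Base composition moved with the difference, and its part in it was not tested. Peaks beyond 100 kb had a median GC content of 43.5% in the central 200 bases, against 48.5% over all peaks. Below 40% GC their median log2 fold change was 1.36, compared with 0.73 at 10 to 100 kb. At 45% to 50% GC the medians were 0.55 and 0.07, and at 55% or more they were 0.00 and -0.30. The share called in βTC6 was 25.8% below 40% GC and 12.1% at 55% or more.

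Shares of some motifs also differed between the called groups. A match describes letters in the window and not binding. The homeodomain core TAATTA was present in 15.1% of the peaks called in βTC6, 5.60% of those called in αTC1 and 10.6% of all peaks beyond 100 kb, against 6.93% of all consensus peaks. The E-box core CAGCTG showed the opposite order, with 27.8% of peaks called in αTC1, 13.2% of those called in βTC6 and 16.1% of all beyond 100 kb, against 17.2% of all consensus peaks. The same order was seen in peaks nearer to genes, where the E-box core was in 31.8% of those called in αTC1 and 15.3% of those called in βTC6. The AP-1 core was in 16.0% and 13.3% of peaks called in αTC1 and βTC6, in 12.6% of all beyond 100 kb and in 10.6% of all consensus peaks. The forkhead core TGTTTAC was in 8.0% and 8.39% of the called peaks, close to the 8.25% of all beyond 100 kb, and in 6.31% of all consensus peaks. GC content differed as well, with a median of 42.0% in peaks called in βTC6 and 46.0% in those called in αTC1, and its part in these shares was not tested.

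Peaks with a CTCF match were mostly called in neither line. A match to the CTCF consensus with at most 1 mismatch was found in 413 peaks beyond 100 kb, or 3.36%, against 4.43% of all consensus peaks. Of these 413, 405 were called in neither line, 7 (1.69%) were called in βTC6 and 1 (0.242%) in αTC1, whereas 21.8% and 4.20% of the peaks without a match were called. Their median log2 fold change was 0.25, and their median levels were 4.52 normalized reads in αTC1 and 5.76 in βTC6.

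The peaks that separated the lines most clearly were higher in all 5 libraries of their line than in any library of the other. The peak near 1700019M22Rik, a RIKEN transcript locus, is at chr12:97178696-97179393 between genes and 106387 bp from the TSS. It held 94.3, 101, 92.6, 107 and 114 normalized reads in the βTC6 libraries and 2.1, 2.11, 2.86, 3.41 and 1.73 in the αTC1 libraries. Its log2 fold change was 4.92 ± 0.13 (SE, n = 5 per line, limma adjusted p = 8.01e-16). No RNA-seq library held a count of 1700019M22Rik itself.

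The second βTC6 peak, at chr13:79485050-79485992, was assigned to Nr2f1, which encodes the orphan nuclear receptor COUP-TFI and starts 1147278 bp away. It held 86.5, 94.6, 80.0, 83.9 and 88.4 normalized reads in βTC6 and 3.78, 3.23, 3.46, 1.91 and 2.74 in αTC1, with a log2 fold change of 4.46 ± 0.13 (limma adjusted p = 1.95e-15).

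Of the other βTC6 peaks, 3 lay inside synaptic scaffold or adhesion genes. In an intron of Nrxn3, which encodes a presynaptic adhesion protein, the peak at chr12:91351641-91352446 averaged 61.2 ± 7.70 normalized reads in βTC6 and 2.04 ± 0.336 in αTC1 (SD, n = 5). In an intron of Magi2, a scaffold protein of cell junctions, the peak at chr5:19095242-19096746 averaged 61.3 ± 7.39 and 2.39 ± 0.342. The peak at chr17:70318141-70319517 overlapped an exon of Dlgap1, a postsynaptic scaffold gene, and averaged 84.9 ± 3.94 and 2.88 ± 0.919. The deposited table put the Dlgap1 peak 455303 bp from the TSS, but a GENCODE TSS of the same gene was 68 bp away, and its GC content of 75.5% was far above the median. The last βTC6 peak, at chr4:81606290-81607348 near the noncoding Gm5860, held 118 normalized reads in replicate 5 and 68.6 to 82.5 in the other βTC6 libraries, against 1.44 to 2.52 in αTC1.

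The strongest αTC1 peak, at chr9:115514246-115515178 near 4930428G15Rik, had the largest log2 fold change of the named peaks. It held 111, 108, 119, 134 and 154 normalized reads in αTC1 and 0.426, 1.03, 0.946, 1.28 and 0.657 in βTC6, where 3 to 9 reads were counted. The log2 fold change was -6.08 ± 0.15 (limma adjusted p = 3.14e-16). The peak at chr2:55670393-55671158, 381209 bp from Kcnj3, which encodes a G protein-gated potassium channel subunit, averaged 84.4 ± 6.24 normalized reads in αTC1 and 1.2 ± 0.782 in βTC6. The peak near Msl3l2 (chr10:55654855-55656141) averaged 85.6 ± 12.2 and 8.03 ± 0.636, and the peak near A930001A20Rik (chr3:15097954-15098933) averaged 65.2 ± 3.47 and 2.09 ± 0.702. An intron of Trio, a guanine exchange factor gene, held the peak at chr15:27717646-27718613 that was assigned to Fam105a, at 62.1 ± 6.29 and 3.69 ± 0.851. The peak at chr10:70968439-70969085, near the inositol phosphate kinase gene Ipmk, averaged 51.3 ± 3.67 in αTC1 and 3.17 ± 0.656 in βTC6.

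**Figure D3:**
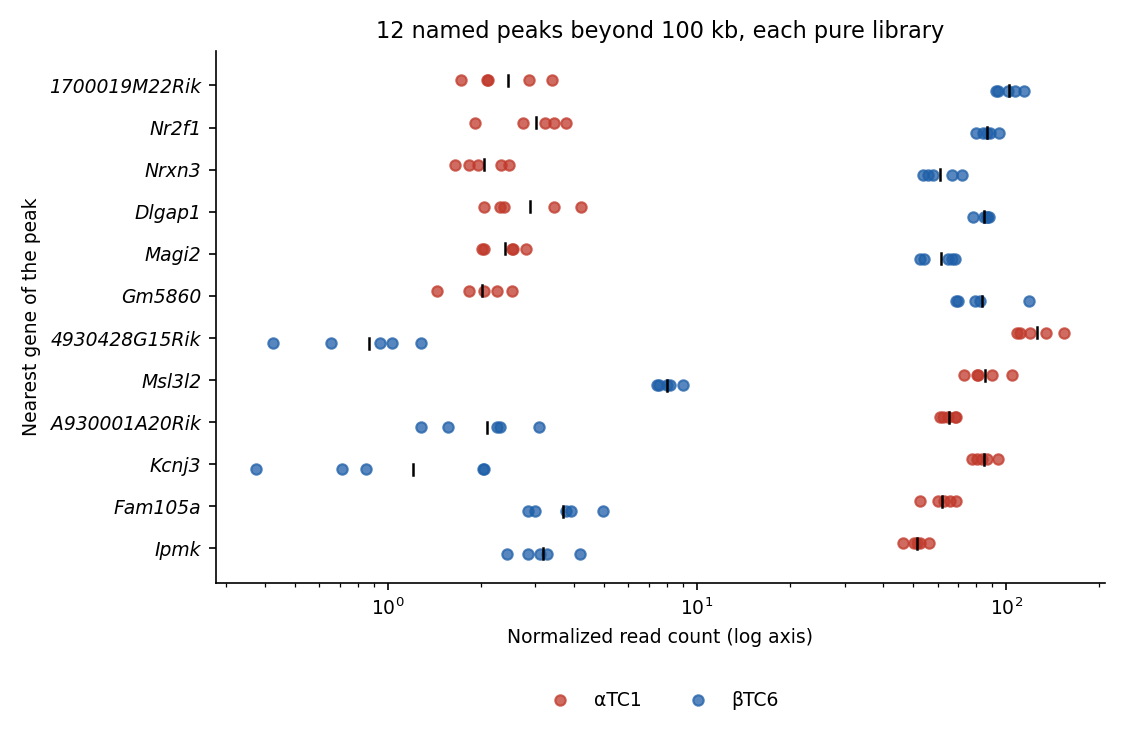
Normalized read count (log axis) of the 12 peaks with the largest moderated t-statistics, 6 per direction, labelled by nearest gene, with a point for each of 5 αTC1 (red) and 5 βTC6 (blue) libraries and a black tick at each mean. The peak near 4930428G15Rik spans the widest gap, from a mean of 0.868 in βTC6 to 125 in αTC1.

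The 3 peaks with the most reads were called in neither line, and 2 of them varied widely between replicates. The strongest, at chr2:98506405-98507478, was assigned to Lrrc4c, a netrin-G ligand gene 1199111 bp away, but lay over the GENCODE gene Gm10800. Its values in αTC1 were 8276, 8233 and 8626 normalized reads in replicates 1 to 3 and 63812 and 47310.4 in replicates 4 and 5. In βTC6 they were 5589.8, 7422 and 5719 in replicates 1 to 3 and 27566 and 13192 in replicates 4 and 5. The log2 fold change was -0.87 ± 0.59 (limma adjusted p = 0.179), and it was -0.44 in replicates 1 to 3 alone (limma adjusted p = 0.00401) and -1.53 in replicates 4 and 5 alone (0.195). With the replicate set (1 to 3, or 4 and 5) as a covariate the adjusted p was 0.00519, so the difference passed the FDR once the split was modelled, though not the threshold of 2. Within the peak, 54.0% of bases matched the base 234 bp further on, the best match of any shift tested. The peak at chr2:98502395-98503018, over Gm10801, was higher in the same replicates and had a log2 fold change of -0.77 ± 0.38 (limma adjusted p = 0.0694, or 0.000642 with the same covariate).

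A further peak of this kind showed no such split. The peak at chr17:39979982-39984228, assigned to the secreted peptide gene Esp38 and 3667 bp from the GENCODE TSS of AY036118, averaged 6996 ± 628 in αTC1 and 2949 ± 221 in βTC6. Its log2 fold change of -1.24 ± 0.19 passed the FDR (limma adjusted p = 4.79e-06) but not the threshold of 2. Under quantile normalization, the log2 fold changes of all 3 were 0.00 (limma adjusted p = 1). Altogether the 10 strongest peaks beyond 100 kb took 19.6% to 19.8% of the reads of this class in αTC1 replicates 1 to 3, and 50.8% and 40.9% in replicates 4 and 5. In βTC6 the same share was 8.72% to 9.80% in replicates 1 to 3 and 23.4% and 12.3% in replicates 4 and 5.

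The strongest CTCF-matched peaks without a call were chosen for log2 fold changes under 0.5 in size, so their small differences are a description. The peak in an intron of Kalrn (chr16:34322535-34323134), which encodes a guanine exchange factor, averaged 35.3 ± 8.01 normalized reads in αTC1 and 27.6 ± 5.52 in βTC6, a log2 fold change of -0.34 ± 0.14 (limma adjusted p = 0.0375). This p was above 0.05 without αTC1 replicate 4 or 5 or βTC6 replicate 1, 2 or 3 (0.0734 to 0.128) and under quantile normalization (0.653). The peak near Pawr (chr10:107882678-107883906), a gene of cell death control, averaged 21.5 ± 1.24 and 20.3 ± 3.14, a log2 fold change of -0.09 ± 0.12 (limma adjusted p = 0.473). The peak near Gm19689 (chr17:83256668-83257367) averaged 17.4 ± 1.48 and 20.0 ± 7.17, and its highest value, 32.7, was βTC6 replicate 5. In each of the 3 the values of the lines overlapped.

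The peaks closest to the distance threshold are described by their mean values only. Just inside it, a peak 100011 bp from Map2k6 averaged 0.142 and 4.27 normalized reads in αTC1 and βTC6, and a peak 100017 bp from Pigk averaged 20.8 and 7.45. Just outside it, a peak 99999 bp from Gbe1 averaged 1.87 and 4.0, and a peak 99993 bp from Fzd1 averaged 1.10 and 3.08.

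Many peaks beyond 100 kb came in runs. Joined across gaps of at most 50000 bp, they formed 4620 runs, of which 2023 held 1 peak and 678 held 5 or more. Of these 678, 410 had calls in βTC6 alone, 67 in αTC1 alone, 78 in both directions and 123 had none. Single peaks beyond 100 kb were called in βTC6 at 21.1% and in αTC1 at 4.07%. More runs with calls in βTC6 alone follow from these shares, and a departure from them was not tested. The 3 runs with the most peaks differed in their calls. The run between Trib2 and Lpin1, a phosphatidate phosphatase gene, held 23 peaks over 329842 bp of chromosome 12, with 2 called in βTC6, 1 in αTC1 and a median log2 fold change of -0.07. The run near Vav3, a guanine exchange factor gene, and Ntng1, a netrin-G gene, held 22 peaks, with 3 called in βTC6 and 2 in αTC1.

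The 3 runs with the most βTC6 calls had few αTC1 calls. The run at chr17:63426085-63717498, near the ephrin ligand gene Efna5 and the F-box gene Fbxl17, held 23 peaks within genes, with 10 called in βTC6 and 1 in αTC1. At chr5:21478999-21648033, a run of 11 peaks within genes lay near the prestin gene Slc26a5 and Reln, which encodes the secreted guidance protein reelin. Of these, 9 were called in βTC6 and all 11 had a log2 fold change above 0. The mean level over these 11 peaks was 1.65 to 1.95 normalized reads in the αTC1 libraries and 18.9 to 19.7 in the βTC6 libraries. Reln itself was at 8.29, 5.97 and 9.45 FPKM in βTC6 and at 0, 0 and 0.01 in αTC1, a ratio of 4956 by total counts of 5311 and 1 (95% exact counting interval 889 to 195804, which covers counting error only). On the same chromosome, 9 of 15 peaks between E130006D01Rik and 1700028D13Rik (chr5:112297861-112521122) were called in βTC6.

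The 3 runs with the most αTC1 calls were shorter. At chr9:115514246-115662492, between 4930428G15Rik and Gadl1, a decarboxylase gene, all 6 peaks were called in αTC1, with log2 fold changes from -6.08 to -2.27. Their mean level was 23.9 to 34.2 normalized reads in the αTC1 libraries and 0.25 to 0.547 in the βTC6 libraries. Gadl1 was listed at 0 FPKM in all 6 RNA-seq libraries. The run near B930025P03Rik (chr8:10671611-10746612) had 5 of 8 peaks called in αTC1, and the run near Fam76b and Sesn3, which encodes a stress-induced sestrin, had 4 of 7 (chr9:13836229-13980160). Sesn3 was at 71.2, 70.2 and 67.5 FPKM in αTC1 and 20.4, 15.2 and 18.9 in βTC6, a log2 fold change of -1.88 ± 0.10 (edgeR adjusted p = 4.18e-07) that fell short of the threshold of 2.

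Of the 2227 nearest genes, 1861 were matched to the RNA-seq table and 1130 were expressed highly enough to be tested (1 FPKM or more throughout the replicates of one line). By edgeR at the same thresholds, 197 (17.4%) were higher in βTC6, against 10.2% of all tested genes, and 80 (7.08%) were higher in αTC1, against 4.08% of all. Genes nearest to peaks called in βTC6 were more often higher in βTC6, with 132 of 561 (23.5%), than higher in αTC1, with 28 (4.99%). Over all nearest genes these shares were 17.4% and 7.08%. Genes nearest to peaks called in αTC1 were higher in βTC6 in 26 of 213 cases (12.2%) and higher in αTC1 in 19 (8.92%).

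Nearest genes were called in the direction of the peak most often within 2 kb. For peaks called in βTC6, the share of nearest genes higher in βTC6 was 81.4% within 2 kb, 35.5% at 2 to 10 kb, 26.8% at 10 to 100 kb and 23.5% beyond 100 kb. Over the nearest genes of any peak in these classes it was 9.02%, 14.6%, 14.3% and 17.4%. For peaks called in αTC1, the share of nearest genes higher in αTC1 was 51.7%, 17.5%, 12.2% and 8.92% in the same order, against 3.02%, 5.57%, 4.55% and 7.08% over the nearest genes of any peak. Beyond 100 kb, 8.92% was thus close to the 7.08% of all nearest genes. Within peaks beyond 100 kb called in βTC6 the share higher in βTC6 was 25.1% at 100 to 200 kb, 22.4% at 200 to 500 kb, 23.8% at 500 kb to 1 Mb and 24.0% beyond 1 Mb. The same shares over the nearest genes of any peak were 17.4%, 18.8%, 21.0% and 22.5%. For those called in αTC1 the share higher in αTC1 was 8.76% of 137 genes at 100 to 200 kb and 14.5% of 76 genes at 200 to 500 kb, and 9.49% and 14.5% of the same genes were higher in βTC6. Over the nearest genes of any peak at these distances, 7.0% and 8.76% were higher in αTC1. These shares are descriptions, since a gene can be nearest to several peaks and classes can share genes.

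Adhesion and guidance genes of the nervous system were nearest to many of these peaks. From a list of 102 such genes, 64 were nearest to 1032 peaks beyond 100 kb, of which 249 (24.1%) were called in βTC6 and 23 (2.23%) in αTC1, with a median log2 fold change of 1.16. Over all peaks beyond 100 kb the shares were 21.1% and 4.07% and the median 0.89. Of the 39 genes tested in the RNA-seq, 13 were higher in βTC6 and 4 in αTC1, against 17.4% and 7.08% of all tested nearest genes. Called peaks were found for 12 of the 13, among them the cadherin genes Cdh4, Cdh6, Cdh8 and Pcdh7. In 9 of the 12 all called peaks were open in βTC6, and in the other 3 (Cdh6, Cdh8 and Igsf11) the calls went both ways. The 4 genes higher in αTC1 were Cdh13, Cdh18, Ntm and Tenm4. Their called peaks were open in αTC1 alone for Cdh18, in βTC6 alone for Cdh13 (3 peaks) and in both directions for Ntm and Tenm4 (5 in βTC6 and 1 in αTC1 each). Gene names in this and the next group that no named peak carries were read after their values were seen.

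Of the 5 genes nearest to the most peaks, 4 encode adhesion proteins. Call counts of single genes here and below stand against shares over all peaks beyond 100 kb of 21.1% in βTC6 and 4.07% in αTC1. Whether any gene departs from these shares was not tested. Adgrl3 encodes latrophilin 3, an adhesion G protein-coupled receptor, and was nearest to 59 peaks, 16 of them called in βTC6 and 0 in αTC1. It was matched through its older symbol Lphn3 and was at 10.6, 6.81 and 11.9 FPKM in βTC6 and 0.10, 0.12 and 0.28 in αTC1, which gave a log2 fold change of 5.84 ± 0.32 (edgeR adjusted p = 3.92e-07). Cdh8, a cadherin gene, had 41 peaks, with 11 called in βTC6 and 1 in αTC1. Cdh8 was at 22.4, 22.9 and 19.5 FPKM in βTC6 and 0.02, 0 and 0 in αTC1, where 1 count was found in all against 5012 in βTC6, a ratio of 4677 (95% exact counting interval 839 to 184783). Lsamp, an IgLON adhesion gene, had 39 peaks, 8 called in βTC6 and 0 in αTC1, yet it reached no more than 0.600 FPKM in any library and was not tested. Tmem261 had 46 peaks, with 17 called in βTC6 and 0 in αTC1, and was not matched to the RNA-seq table.

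Nlgn1 encodes neuroligin 1, the postsynaptic partner of neurexins, and 11 of its 41 peaks were called in βTC6 and 0 in αTC1. Its best-separated peak, 1447650 bp away at chr3:24603775-24605383, held 45.7, 48.6, 44.7, 47.7 and 43.2 normalized reads in βTC6 and 3.22, 3.51, 3.76, 5.32 and 5.06 in αTC1. Nlgn1 was at 1.58, 1.42 and 1.30 FPKM in βTC6 and 0.15, 0.08 and 0.19 in αTC1, which gave a log2 fold change of 3.35 ± 0.33 (edgeR adjusted p = 1.42e-05). Negr1, another IgLON gene, had 18 peaks, all inside the gene, and 8 were called in βTC6. Its log2 fold change in expression was 2.01 ± 0.12 (edgeR adjusted p = 6.45e-07), which was 1.95 without αTC1 replicate 2 and 1.90 without βTC6 replicate 1, short of the threshold. The Negr1 peak at chr3:156434580-156435329 averaged 59.0 ± 4.6 normalized reads in βTC6 and 6.01 ± 0.715 in αTC1. For the cadherin gene Cdh18 the direction was the other one, with 2 of 20 peaks called in αTC1 and 0 in βTC6. The Cdh18 peak at chr15:23088134-23089670 averaged 49.9 ± 3.92 in αTC1 and 8.91 ± 1.36 in βTC6, and Cdh18 expression had a log2 fold change of -2.10 ± 0.15 (edgeR adjusted p = 2.31e-06).

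Transcription factor genes showed mixed directions. From a list of 175 factors of islet cells and development, 72 were nearest to 494 peaks, of which 94 (19%) were called in βTC6 and 33 (6.68%) in αTC1, with a median log2 fold change of 0.35, against 21.1%, 4.07% and 0.89 over all peaks beyond 100 kb. Of 46 tested genes, 6 were higher in βTC6 and 15 in αTC1, where the shares over all tested nearest genes were 17.4% and 7.08%. Among the 9 of these 15 that had called peaks, the called peaks were open in αTC1 alone for 3 (Nfib, Rorb and Zfp536), in βTC6 alone for 4 (Nfia, Nr2f1 and Tox among them) and in both directions for 2 (Irx1 and Sim1). Of the 6 genes higher in βTC6, 5 had called peaks, which were open in βTC6 alone for 4 (Bcl11a, Pbx3, Six2 and Sp8) and in αTC1 alone for 1 (Nkx6-1).

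Rorb, which encodes an orphan nuclear receptor, was the clearest case of matching directions. All 3 of its peaks beyond 100 kb were called in αTC1, and the one at chr19:19320867-19321876 held 69.2, 71.6, 73.6, 76.4 and 65.3 normalized reads in αTC1 and 13.3, 11.5, 13.8, 9.99 and 7.61 in βTC6. Rorb was at 10.2, 10.5 and 11.4 FPKM in αTC1 and 0.18, 0.13 and 0.26 in βTC6, a log2 fold change of -5.84 ± 0.19 (edgeR adjusted p = 1.80e-08).

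The called peaks of Nr2f1 showed the opposite. Of its 21 peaks, all between genes and 111975 to 1244124 bp away, 9 were called in βTC6 and 0 in αTC1, with a median log2 fold change of 1.69. The gene itself was at 10.2, 11.5 and 7.99 FPKM in αTC1 and 0.04, 0.01 and 0.05 in βTC6. The βTC6 libraries held 5 counts of it in all and the αTC1 libraries 1614, a ratio of 346 by total counts (95% exact counting interval 148 to 1067). The other 12 peaks were called in neither line, with log2 fold changes down to -1.46, so the opposed direction holds for the 9 called peaks.

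Opposed directions were also seen for genes higher in βTC6. Igsf11, an immunoglobulin superfamily adhesion gene, was at 4.86, 3.74 and 5.94 FPKM in βTC6 and 0.03, 0.01 and 0 in αTC1, a ratio of 311 by total counts of 999 and 3 (95% exact counting interval 106 to 1509). Its peak at chr16:39642670-39643486, 740620 bp away, held 26.8, 26.3, 28.1, 31.7 and 30.9 normalized reads in αTC1 and 1.70, 1.03, 1.62, 2.43 and 2.25 in βTC6. In all, 2 of the 18 Igsf11 peaks were called in αTC1 and 4 in βTC6. For the beta cell factor gene Nkx6-1, higher in βTC6 with a log2 fold change of 2.19 ± 0.09 (edgeR adjusted p = 6.88e-08), 1 of 7 peaks was called in αTC1 and 0 in βTC6. Kcnj3, one of whose peaks was among the strongest αTC1 calls, was itself higher in αTC1 (log2 fold change -2.99 ± 0.35, edgeR adjusted p = 5.28e-05), although 5 of its 13 peaks were called in βTC6 and 1 in αTC1.

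**Figure D4:**
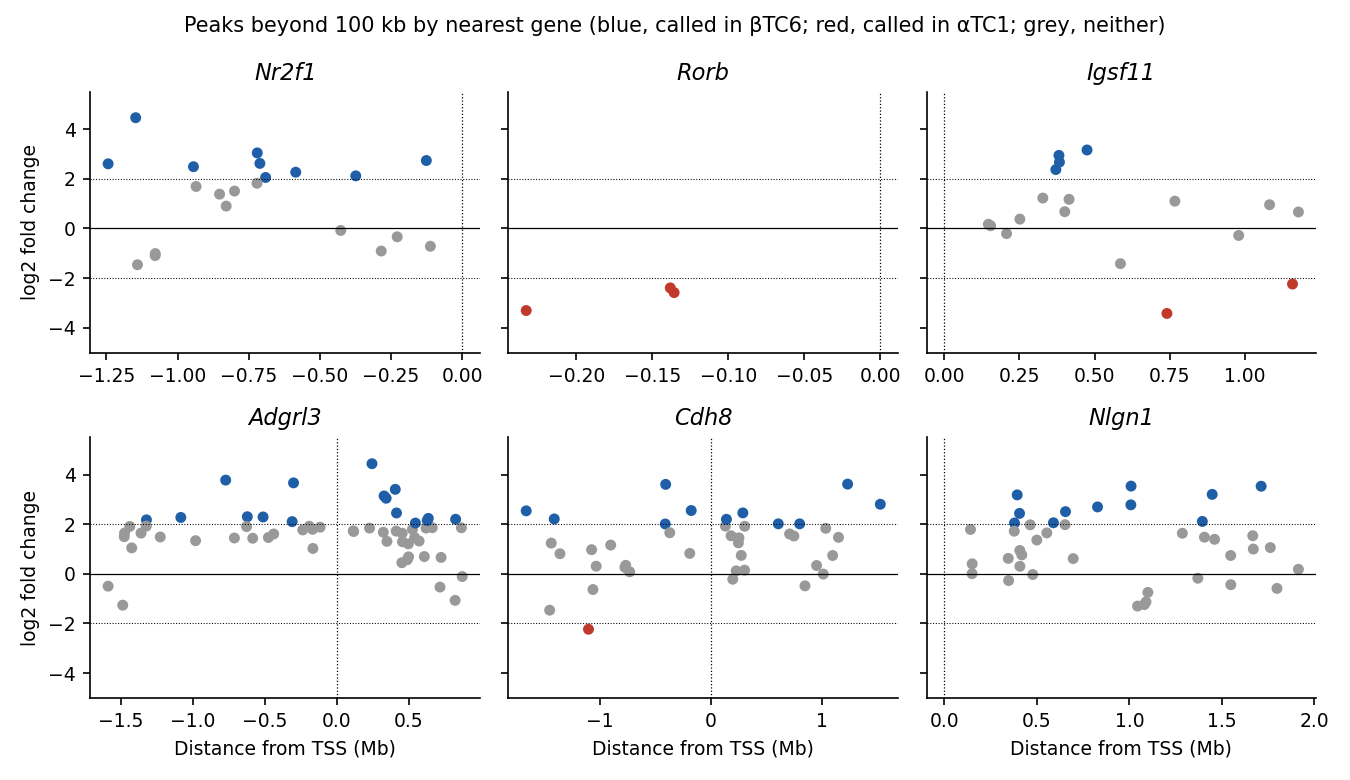
Log2 fold change of accessibility, βTC6 over αTC1 (vertical axis), of each peak beyond 100 kb against its signed distance from the TSS (horizontal axis, Mb, negative upstream) for 6 nearest genes, coloured by call. Nr2f1, a gene higher in αTC1, has 9 βTC6 calls among 21 peaks, while all 3 peaks of Rorb, also higher in αTC1, are αTC1 calls.

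In the mixtures the called peaks followed the share of cells. Mixture values entered neither the distance rule nor the calls. In the mixture with 50% of each line, the 2598 peaks called in βTC6 stood at a median of 50.8% of the way from the αTC1 mean to the βTC6 mean, and the 500 called in αTC1 at 55.8% of the way in the other direction. With 10% βTC6 cells the βTC6 peaks stood at 7.34%, and with 10% αTC1 cells the αTC1 peaks stood at 11.9%. At those shares, 57.2% of the βTC6 peaks and 71.2% of the αTC1 peaks were above every pure library of the other line, compared with 47.1% and 65.1% of the called peaks at 10 to 100 kb. Each mixture is 1 library, so this carries no replicate error.

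Single peaks followed composition closely. Over the 9 mixtures, each of the 17 named peaks that had a call correlated with the percentage of βTC6 cells in the direction of its call, with an absolute Pearson r of 0.951 to 0.993. In 2-sided exact permutation tests their adjusted p was at most 8.45e-05 over 23 peaks tested, and the smallest p that 9 mixtures allow is 5.51e-06. These 17 peaks were chosen for large differences between the pure lines, so strong correlations with the mixing of those lines follow from that choice. The Nr2f1 peak held 8.13 normalized reads at 10% βTC6, 41.9 at 50% and 79.6 at 90% (r = 0.966, Spearman correlation 0.983, exact permutation adjusted p = 2.54e-05 and 8.15e-05). The 4930428G15Rik peak held 142, 81.2 and 23.1 in the same mixtures (r = -0.989, Spearman correlation -1.0, exact permutation adjusted p = 2.54e-05 and 3.17e-05). Without the mixtures of 10% and 90%, which are farthest from the middle, r was 0.944 for the Nr2f1 peak and -0.986 for the 4930428G15Rik peak.

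The 3 CTCF-matched peaks had r of -0.215 in Kalrn, 0.288 near Pawr and 0.598 near Gm19689 (exact permutation adjusted p = 0.571, 0.472 and 0.0977). They were chosen for small differences between the pure lines, so weak correlations follow from that choice. The 3 peaks with the most reads, chosen without that condition, passed the test. The Gm10800 peak held 18075 normalized reads at 10% αTC1 and 52414 at 90% αTC1, with r of -0.963 against the percentage of βTC6 (Spearman correlation -0.967, exact permutation adjusted p = 7.46e-05 and 0.0002). At 90% and 10% αTC1, these mixture values were within the range of replicates 4 and 5 of the corresponding pure line and outside that of replicates 1 to 3.

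**Figure D5:**
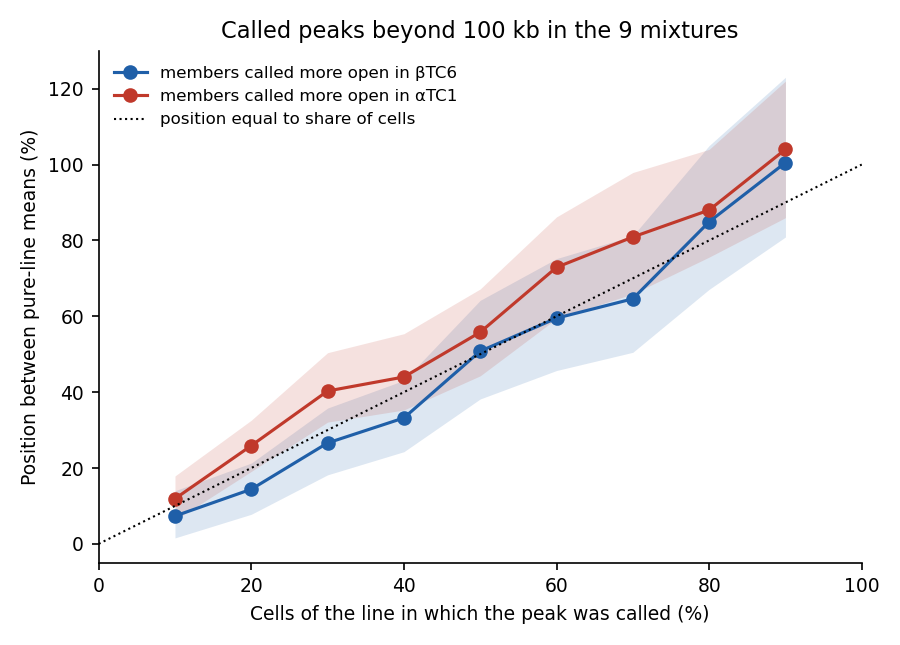
Median position of called peaks beyond 100 kb between the mean of the other line (0%) and of their own line (100%) in each of 9 mixtures, against the percentage of cells of their own line, with shading for the quartiles over peaks and a dotted line where position equals share. At 50% the medians are 50.8% for βTC6 peaks and 55.8% for αTC1 peaks, and at 90% they are 100.5% and 104%.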

How the data were processed

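ATAC-seq was measured in 19 libraries and RNA-seq in 6. The deposited ATAC-seq signal values are normalized read counts: the authors trimmed reads (Trimmomatic 0.32), aligned them to mm9 (BWA 0.7.9a), removed duplicates (Picard 1.95), called peaks (MACS2 2.1.0), merged the sets of all libraries, mixtures included (DiffBind 2.2.5), and scaled reads per peak by TMM. Values were whole multiples of 1 read in 100% of cases (tolerance 0.01). The deposited expected counts and the FPKM of the authors came from RSEM 1.2.12 on mm9. Columns with the authors' own peak classes were not used. Peaks were tested with limma 3.58.1 (trend) and genes with edgeR 4.0.16 (quasi-likelihood, TMM, rounded expected counts) over all features, with Benjamini-Hochberg adjustment. RNA-seq libraries held 21954031 to 26033482 expected counts. TMM stood in for the authors' spike-in normalization. Mixtures were tested by exact permutation. SE are moderated (limma) or the log2 fold change over the square root of F (edgeR).

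The nearest gene and signed distance are the deposited ones. Of the nearest genes, 1758 matched by symbol and 103 by a RefSeq synonym (GRCm38.p6, names only). Gene context and sequence came from GENCODE vM1 and the NCBIM37 genome. A motif match is an exact match on either strand, while for CTCF bases 5 to 17 of the HOMER consensus were used and 1 mismatch was allowed. Members, gene lists and tests were chosen with earlier results of these data known. Named peaks were the 6 per direction with the largest moderated t (1 per nearest gene), the 3 strongest, the 3 strongest uncalled CTCF matches with a fold change under 0.5, the 3 per direction on the gene lists with a called gene, the 3 runs with the most peaks and the 3 per direction with the most calls. Named genes were those nearest to these and the 5 nearest to the most peaks. Peaks of 1 further autosome were counted but are not described singly. Replicate libraries differed beyond counting error (chi-square per degree of freedom 1.99 or more). In αTC1 this value was 1.99 to 2.09 within replicates 1 to 3 and 8.61 to 9.93 between these and replicates 4 and 5. In βTC6 the same ranges were 2.22 to 2.49 and 4.26 to 8.03. On simulated tables with 200 changed features, both tests were checked. Alternatives covered pseudocounts (0.5 and 5), filters, scaling, DESeq2 1.42.0, edgeR on recovered reads, replicate subsets and leaving out each library. Everything else was computed in Python 3.11.15.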

Additional observations from a re-analysis of the deposited data

Results flagged for a closer look

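Of 46 groups of 5 libraries examined for the named peaks, 3 held a library far from the other 4, and chance flags about 1 in 20 such groups. βTC6 replicate 5 was the highest for the peak near Gm5860 on chromosome 4, at 118 normalized reads, and for the CTCF-matched peak near Gm19689, at 32.7. βTC6 replicate 5 is the deepest pure library, with 10374903 reads in peaks. αTC1 replicate 4 was the highest for the peak near Esp38 on chromosome 17, at 8085. None of the 3 peaks changed its call when that library was left out, although the log2 fold change near Gm19689 went from 0.14 to -0.04.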

How the results depend on the processing

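Counts depended on the scale and the test more than on single libraries. Peaks beyond 100 kb called in βTC6 and αTC1 numbered 2598 and 500, and 565 and 124 with a pseudocount of 5, 1722 and 778 with chromosome medians centred, 4362 and 923 by edgeR on recovered reads, and 4297 and 965 by DESeq2. Under quantile normalization 1758 were called in βTC6 and 797 in αTC1. edgeR called 35.5% of peaks beyond 100 kb in βTC6 against 21.2% of all peaks, and its calls included all 2598 and all 500. The centring moved the median log2 fold change of all peaks from 0.00 to -0.34 and that of peaks beyond 100 kb from 0.89 to 0.52. Leaving out a library gave 2484 to 2692 and 486 to 537 calls. Without the FPKM filter 382 nearest genes were called in βTC6 and 130 in αTC1, and leaving out a library gave 197 to 204 and 79 to 82. Taking the gene with the nearest GENCODE TSS instead gave 141 and 65. The replicate block gave 2598 and 500 peaks and 198 and 80 genes and changed no other call at the threshold of 2, although the peaks over Gm10800 and Gm10801 passed the FDR with it (adjusted p = 0.00447 and 0.000239). Deviations of same-numbered replicates from their line means correlated at most 0.069. Such low values cannot exclude shared processing, so whether the numbers pair libraries was not settled. Of the values of single named items under the alternatives, 478 of 483 for peaks, 242 of 250 for genes and 45 of 46 for mixture correlations kept their direction and their side of the threshold, counting as unchanged the 3 strongest peaks, which were at 0.00 under quantile normalization with no direction left. Reversed signs were seen only for differences near 0: the Pawr peak (0.01, quantile normalization), the Gm19689 peak (-0.22 centred, -0.01 in replicates 1 to 3, and -0.04 to 0.22 without a library, the lowest without βTC6 replicate 5), Kalrn expression (-0.04 without the FPKM filter, and -0.15 to 0.23 without a library) and the mixture r of the Kalrn peak (0.121 without the end mixtures). Negr1 expression fell below the threshold at 1.95 without the FPKM filter or αTC1 replicate 2 and at 1.90 without βTC6 replicate 1, the Cdh18 peak at -1.98 with a pseudocount of 5, and Efna5 expression, 1.97, passed it at 2.22 without αTC1 replicate 3. The cause was not tested. A peak at 1 read cannot be told from a closed one, which limits fold changes of weak peaks.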
